A study of Mus musculus with 9 samples.

Results

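Values are given for 6 genes of steroid hormone signalling: the receptors Esr1 and Nr3c1, the nuclear receptor coactivators Ncoa3 and Ncoa4, and the steroid-induced genes Klf9 and Tsc22d3. They were read by all array features that the platform annotation assigns to one of these symbols alone, with symbols brought up to date by gene ID, which gave 10 of the 11552 features on the array. Esr1 had 4 features, Ncoa4 had 2, and each of the other genes had 1. A test was possible for 8 of the 10, which still covered all 6 genes. Esr1 feature 3 had a value on 3 arrays and Esr1 feature 4 on 0, so neither was tested.

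Each of the 9 dual-channel arrays held a C57BL/6 mouse castrated at 7 weeks of age against a matched sham-operated mouse. Castration removes the gonads; the sex of the mice was not given in the sources used here. There were 3 arrays each of old marrow (59 weeks, specimens labelled bone marrow), young bone (17 weeks) and young marrow (17 weeks), and each replicate was a separate pair of mice. Whether the young bone and young marrow arrays used the same pairs was not stated. The tissue came from femur, tibia and humerus; the design text mentions separating marrow only at the young age, so bone in the old specimens cannot be settled either way. An array gives a ratio between 2 mice and no expression level, so the labelled tissues could not be checked by the presence of their markers. In whole tissue, fewer cells of a type and less RNA per cell cannot be told apart.

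Steroid receptors are transcription factors that bind a hormone inside the cell and then act at response elements in DNA. Esr1 encodes estrogen receptor alpha, which protects bone mass in both sexes, and Nr3c1 encodes the glucocorticoid receptor, which restrains osteoblasts and lymphocytes. Bound receptors recruit coactivators: Ncoa3 is a p160 coactivator with histone acetyltransferase activity, and Ncoa4 was named as an androgen receptor coactivator and also delivers ferritin to the lysosome. Klf9, a zinc finger transcription factor, and Tsc22d3, the glucocorticoid-induced leucine zipper protein that restrains inflammatory signalling, are both transcribed directly after glucocorticoid exposure.

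Promoter windows are shown for both hormone-induced genes and for Ncoa4, the coactivator with the ratios farthest from 0 in young bone. They are shown because binding to response elements is a way in which steroid receptors act on a gene. Each window runs 5′ to 3′ on the gene's strand, from 250 bases before to 50 after an annotated start (RefSeq, GRCm38.p6), and capitals mark the hexamer TGTTCT or its reverse AGAACA, the unit that stands in inverted copies in a glucocorticoid or androgen response element. Tsc22d3 is shown at chrX:140600473-140600772 (minus strand, 1 of 3 annotated windows), Klf9 at chr19:23140976-23141275 (plus strand, its 1 window) and Ncoa4 at chr14:32165539-32165838 (plus strand, 1 of 3 windows).
Tsc22d3: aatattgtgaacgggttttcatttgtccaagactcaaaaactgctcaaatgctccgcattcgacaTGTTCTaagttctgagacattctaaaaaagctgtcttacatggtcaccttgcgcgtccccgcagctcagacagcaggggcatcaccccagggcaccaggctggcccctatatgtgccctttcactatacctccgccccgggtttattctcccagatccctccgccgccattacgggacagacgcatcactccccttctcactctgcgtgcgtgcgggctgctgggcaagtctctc
Klf9: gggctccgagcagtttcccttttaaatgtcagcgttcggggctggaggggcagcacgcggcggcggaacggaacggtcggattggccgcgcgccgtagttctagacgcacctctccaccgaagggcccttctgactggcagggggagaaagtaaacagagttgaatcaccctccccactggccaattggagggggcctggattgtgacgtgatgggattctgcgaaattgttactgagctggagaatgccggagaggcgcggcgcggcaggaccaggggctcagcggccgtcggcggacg
Ncoa4: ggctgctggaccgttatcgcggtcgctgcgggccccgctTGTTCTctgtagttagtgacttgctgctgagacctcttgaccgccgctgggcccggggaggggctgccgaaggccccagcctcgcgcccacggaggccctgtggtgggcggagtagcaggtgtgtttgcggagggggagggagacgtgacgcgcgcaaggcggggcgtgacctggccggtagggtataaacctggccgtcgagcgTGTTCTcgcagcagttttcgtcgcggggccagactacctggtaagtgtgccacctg
The Tsc22d3 window held 1 such hexamer starting at position -185 from the start of transcription, the Klf9 window held 0, and the Ncoa4 window held 2, at -211 and -6. For genes with several windows the one with the most hexamers is shown: the other windows of Tsc22d3 held 0 and 0, and those of Ncoa4 held 1 and 1. One of these Ncoa4 windows overlaps the window shown, and its hexamer, at -8 there, is the same site as the one at -211. Of all 32851 windows of 300 bases in the table, 19% held the hexamer on either strand. The full element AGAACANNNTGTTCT was in 0.00913% of all windows and in 0 of the windows of these genes. The full estrogen element GGTCANNNTGACC was in 0.07% of all windows and likewise in 0 of theirs. Windows of Esr1 were searched too, and those of Nr3c1 and Ncoa3 were not analysed here. Elements outside the windows were not searched, so these counts do not tell whether a hormone acts on a gene.

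All values below are deposited log ratios, read as log2. No label states which way the ratio runs. Because every array is described as castrated against sham, the castrated-over-sham reading was taken as the likely one, and a positive value then means higher in the castrated mouse. The castrated mouse was in Cy5 on 6 arrays and in Cy3 on 3 arrays (old marrow replicate 2, young bone replicate 3, young marrow replicate 2). If the ratio is instead Cy5 over Cy3, those 3 values change sign, and results under this channel reading are given beside the others. The arrays carried between 8290 and 10995 values. The SD across features was 0.454 on old marrow replicate 1 and between 0.192 and 0.294 on the other arrays. The median across features was -0.11 on old marrow replicate 1 and between -0.03 and 0.01 on the other arrays. Across features, pairs of arrays with the castrated mouse in Cy5 had Pearson correlations between -0.21 and 0.45.

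Across the 6 genes most log2 ratios were small, and no difference between castrated and sham-operated mice passed the test. With limma over 8885 features and Benjamini-Hochberg adjustment at 0.05, 0 of the 8 tested features passed in old marrow (0.732% of all features passed), in young bone (0.259%), in young marrow (0.844%) or in the average of the 3 groups (4.04%). At an unadjusted p under 0.05 the counts were 0 of 8 in old marrow (18.2% of all features), 2 of 8 in young bone (8.78%), 0 of 8 in young marrow (10.5%) and 1 of 8 in the average (16.2%). Each of these counts lay near or below what that share of all features would give, except the count in young bone, which consists of both Ncoa4 features. Under the channel reading 0 of 8 and 0% of all features passed in all 4 comparisons. At an unadjusted p under 0.05 that reading gave 0 of 8 in each, against 2.28% of all features in old marrow, 6.82% in young bone, 0.754% in young marrow and 4.7% in the average.

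**Figure D1:**
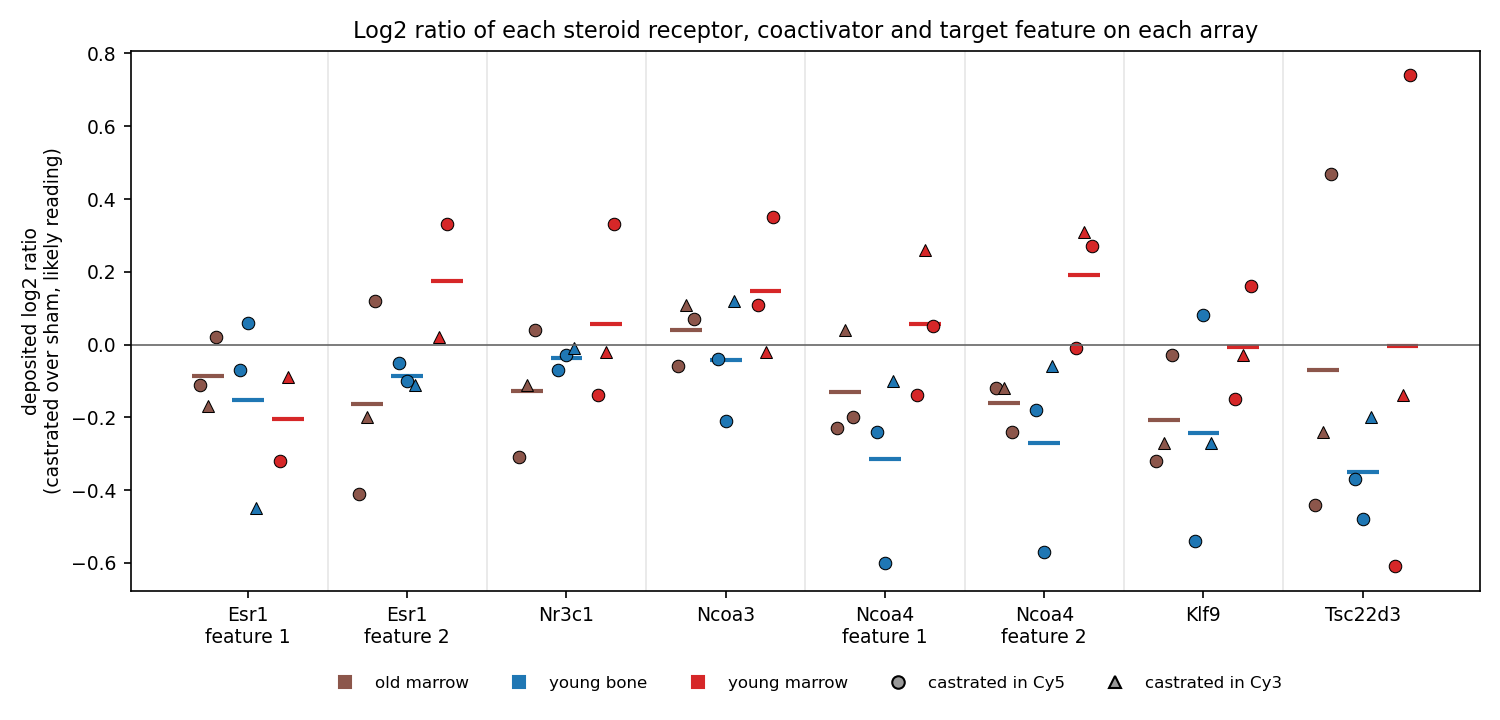
Deposited log2 ratio (vertical axis) of the 8 tested features on each array, coloured by group, with circles where the castrated mouse was in Cy5 and triangles where it was in Cy3; short bars are group means. Ncoa4 lay below 0 on every young bone array in both features, and Tsc22d3 spread from -0.61 to 0.74.

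Esr1, the estrogen receptor, was read by 2 tested features with partly different patterns. Esr1 feature 1 had log2 ratios of -0.11, -0.17 and 0.02 in old marrow replicates 1 to 3, -0.07, 0.06 and -0.45 in young bone, and -0.32 and -0.09 in young marrow replicates 1 and 2, with no value on replicate 3. It was below 0 on 6 of 8 arrays, the groups overlapped, and the lowest value came from a single young bone array on which the castrated mouse was in Cy3. Its average in the fit was -0.16 (SE 0.07, 95% interval -0.32 to -0.01, limma adjusted p = 0.28), the smallest p of any of these features in the average. Read as Cy5 over Cy3, the average was 0.06 (95% interval -0.08 to 0.20, adjusted p = 0.89 by limma).

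Esr1 feature 2, which the platform annotation ties to a genomic clone record and not to a transcript, had log2 ratios of -0.41, -0.20 and 0.12 in old marrow and -0.05, -0.10 and -0.11 in young bone. In young marrow it had 0.02 and 0.33 on replicates 2 and 3, with no value on replicate 1. All 3 young bone values were thus below 0 and both young marrow values above it, with the old marrow values on either side. The average was -0.04 (95% interval -0.20 to 0.12, limma adjusted p = 0.88). On the 7 arrays that measured both Esr1 features, their values differed by 0.02 to 0.34 and had a Pearson correlation of 0.25 (Spearman 0.61), or 0.62 when read by channel.

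Nr3c1, the glucocorticoid receptor, stayed close to 0 in bone. Its log2 ratios were -0.31, -0.11 and 0.04 in old marrow, -0.07, -0.03 and -0.01 in young bone, and -0.14, -0.02 and 0.33 in young marrow. The group means were -0.13 ± 0.18, -0.04 ± 0.03 and 0.06 ± 0.24 (SD, n = 3 each), in that order, and the groups overlapped. The fitted average was -0.04 (95% interval -0.19 to 0.11, limma adjusted p = 0.87), and 0.01 (95% interval -0.15 to 0.17) under the channel reading.

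Ncoa3, the p160 coactivator, had log2 ratios of -0.06, 0.11 and 0.07 in old marrow, -0.04, -0.21 and 0.12 in young bone, and 0.11, -0.02 and 0.35 in young marrow. It was above 0 on 5 of 9 arrays, and the 3 groups overlapped. The average was 0.05 (95% interval -0.09 to 0.19, limma adjusted p = 0.79). Read by channel, Ncoa3 was below 0 on all 3 young bone arrays, where 16.3% of all features were, and above 0 on all 3 young marrow arrays, where 5.08% were. Its difference between young bone and young marrow under that reading was -0.28 (SE 0.14, limma adjusted p = 1).

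Ncoa4, the coactivator that also serves ferritin turnover, was measured by 2 features of the same sequence record. Ncoa4 feature 1 had log2 ratios of -0.23, 0.04 and -0.20 in old marrow, -0.24, -0.60 and -0.10 in young bone, and -0.14, 0.26 and 0.05 in young marrow. Feature 2 had -0.12, -0.12 and -0.24 in old marrow, -0.18, -0.57 and -0.06 in young bone, and -0.01, 0.31 and 0.27 in young marrow. Both features were below 0 on all young bone arrays and lowest on young bone replicate 2, and most young marrow values lay higher. Over the 9 arrays the features had a Pearson correlation of 0.91, with a mean absolute difference of 0.09 (range 0.03 to 0.22). This difference between features of 1 sequence is smaller than the spread of either across arrays (SD 0.24 and 0.26, n = 9).

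In young bone the fitted log2 ratio of Ncoa4 was -0.26 (SE 0.10, 95% interval -0.48 to -0.05) in feature 1 and -0.24 (SE 0.11, 95% interval -0.47 to 0.00) in feature 2. Neither passed over all features, with limma adjusted p of 0.4 and 0.55. In old marrow the values were -0.08 (SE 0.10) and -0.13 (SE 0.11), and in young marrow 0.11 (SE 0.10) and 0.22 (SE 0.11). By channel, young bone kept values below 0, at -0.22 (SE 0.13) and -0.21 (SE 0.15), while young marrow stood at -0.09 and 0.00.

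The difference between tissues was the comparison in which Ncoa4 stood farthest from 0. Young bone minus young marrow was -0.37 (SE 0.13, 95% interval -0.67 to -0.07) in feature 1 and -0.46 (SE 0.15, 95% interval -0.79 to -0.13) in feature 2. At an unadjusted p under 0.05 2 of the 8 features, both of Ncoa4, passed in this difference, against 5.12% of all features, but 0 of 8 and 0% of all features passed by limma after adjustment (adjusted p = 0.87 for both). Read by channel, 0 of 8 passed at an unadjusted p under 0.05, against 1.67% of all features. Markers of other cell types differed among the same arrays. The median log2 ratio of 6 skeletal muscle genes (Acta1, Ckm, Eno3, Mb, Myl1 and Mylpf) was -1.36, -0.20 and -0.60 in young bone replicates 1 to 3 and -0.08, 0.04 and -0.09 in young marrow, with 1.04, 0.15 and 0.31 in old marrow. That of 3 bone matrix genes (Col1a1, Col1a2 and Sparc) was 0.34, 1.74 and 0.26 in young bone and 0.50, 0.27 and 0.81 in young marrow, with -0.33, 0.22 and 0.38 in old marrow. In young bone 6 of 6 muscle genes (median fitted ratio -0.70) and 3 of 3 matrix genes (0.77) had an unadjusted p under 0.05. In young bone minus young marrow 3 of 6 (median -0.85) and 0 of 3 (0.16) did. A gene was counted if any of its features had such a p. The shares of all single features were 8.78% in young bone and 5.12% in the difference. By limma after adjustment 0 of either list passed in both comparisons. The bone matrix median was highest on young bone replicate 2, the array with the lowest Ncoa4 values, and the muscle medians were lower in young bone than in young marrow; their part in the result was not tested.

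Klf9, the hormone-induced zinc finger factor, had log2 ratios of -0.32, -0.27 and -0.03 in old marrow, -0.54, 0.08 and -0.27 in young bone, and -0.15, -0.03 and 0.16 in young marrow. It was below 0 on 7 of 9 arrays and on all 3 old marrow arrays, and the young bone values spanned nearly the range of all arrays. The average was -0.16 (SE 0.08, 95% interval -0.33 to 0.01, limma adjusted p = 0.33). With arrays weighted by quality the average was -0.21 (SE 0.06) and passed (limma adjusted p = 0.037). That setting raised the count over all features in the average to 1056, from 359 in the main fit. Klf9 was 1 of these 1056, so its pass there does not set it apart from the array as a whole. The channel reading gave Klf9 an average of 0.03 (95% interval -0.16 to 0.22, adjusted p = 0.95 by limma).

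Tsc22d3, the glucocorticoid-induced leucine zipper gene, varied most. Its log2 ratios were -0.44, -0.24 and 0.47 in old marrow, -0.37, -0.48 and -0.20 in young bone, and -0.61, -0.14 and 0.74 in young marrow. It was below 0 on 7 arrays and high on old marrow replicate 3 and young marrow replicate 3, where it lay at percentiles 97.4 and 99 of all features on those arrays. Its lowest value, on young marrow replicate 1, lay at percentile 0.5. Its SD over the 9 arrays was 0.45, against a median of 0.20 over the 7544 tested features with 9 values, above 95.3% of them, and Klf9 with an SD of 0.22 stood above 57.8%.

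In young bone, the group in which all its values were below 0, the fitted log2 ratio of Tsc22d3 was -0.36 (SE 0.23, 95% interval -0.87 to 0.15, limma adjusted p = 0.79). The average over the groups was -0.15 (95% interval -0.46 to 0.15), and under the channel reading 0.04 (95% interval -0.28 to 0.36). Without young marrow replicate 3 the average was -0.25 (SE 0.11, limma adjusted p = 0.32). The intervals of Tsc22d3 were the widest of the 6 genes.

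**Figure D2:**
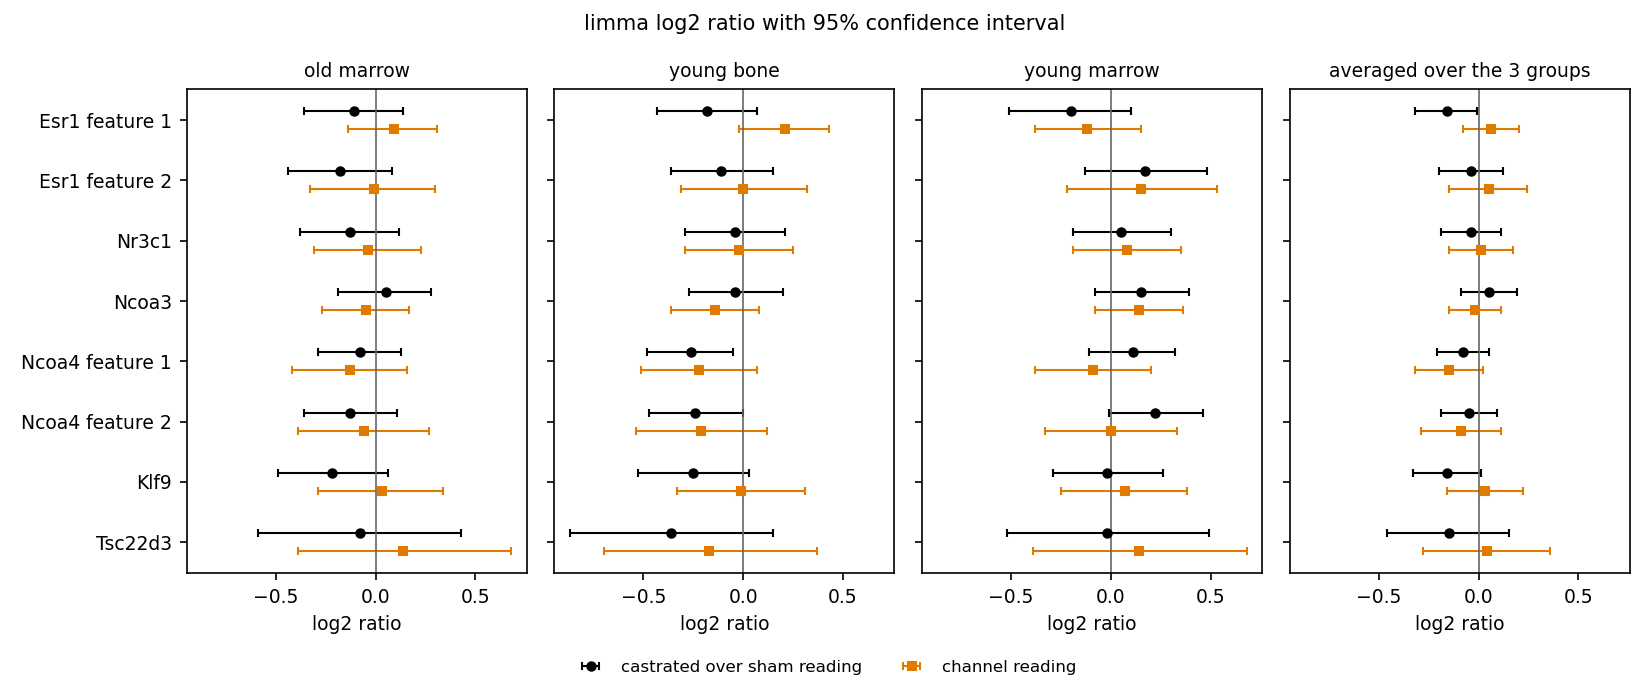
Log2 ratio fitted by limma (horizontal axis, with 95% confidence intervals) of the 8 tested features in old marrow, young bone and young marrow and averaged over them, under the castrated-over-sham reading (black circles) and the channel reading (orange squares). Nearly all intervals include 0; the exceptions are both Ncoa4 features in young bone (-0.26 and -0.24, the second with its upper bound at 0.00) and Esr1 feature 1 in the average (-0.16), under the castrated-over-sham reading.

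By sign alone, 5 of the 8 features were below 0 on all 3 young bone arrays (Esr1 feature 2, Nr3c1, both of Ncoa4, and Tsc22d3), against 14.2% of all features. The 2 Ncoa4 features share 1 sequence record, so they are not separate cases. Nr3c1 lay close to the middle of all features, at percentiles 35.3, 50.7 and 50.4 on young bone replicates 1 to 3. In old marrow 2 of 8 were below 0 on all 3 arrays (Ncoa4 feature 2 and Klf9), against 24.6%. The median of all values on old marrow replicate 1 was itself -0.11, and Ncoa4 feature 2 (-0.12) lay at percentile 48.3 there. In young marrow 0 of the 6 features with 3 values were, against 17.4%. With the channel reading the count in young bone was 1 of 8, against 16.3% of all features, in old marrow 1 of 8, against 10.2%, and in young marrow 0 of 6, against 7.8%. Above 0 on all 3 arrays were 0 of 8 in old marrow (15.7% of all features), 0 of 8 in young bone (10.1%) and 0 of 6 in young marrow (20.7%), and with the channel reading 0 of 8 in old marrow (4.13%), 0 of 8 in young bone (16%) and 1 of 6 in young marrow, Ncoa3 (5.08%). The median fitted ratio of the 8 features in young bone was -0.21 under the castrated-over-sham reading and -0.08 under the channel reading, against -0.01 and 0.00 over all features.

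The age groups were compared through the difference of the fitted ratios. All mice were castrated at 7 weeks, so age cannot be told apart from time since castration. Possible bone in the old specimens cannot be told apart from either. In old marrow minus young marrow, 0 of 8 features passed by limma (0% of all features). Over all features the median of this difference was -0.07, and 60.6% lay below 0. At an unadjusted p under 0.05 1 of 8 passed, against 14.5% of all features, namely Ncoa4 feature 2 at -0.35 (SE 0.15, limma adjusted p = 0.34). Esr1 feature 2 stood at -0.36 (95% interval -0.76 to 0.05) and Tsc22d3 at -0.07 (95% interval -0.77 to 0.64). In old marrow minus young bone 0 of 8 passed by limma (0.0113% of all features), and 0 of 8 at an unadjusted p under 0.05 (6.63%). The 8 values ran from -0.09 for Nr3c1 to 0.28 for Tsc22d3. By the channel reading 0 of 8 passed in either difference, adjusted or not; at an unadjusted p under 0.05 the shares of all features were 0.754% for old minus young marrow and 4.09% for old marrow minus young bone.

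The dye layout was examined because a gene that favours 1 dye would split the arrays by it. Esr1 feature 1 averaged -0.24 ± 0.19 on the 3 arrays with the castrated mouse in Cy3 and -0.08 ± 0.15 on 5 arrays with it in Cy5 (SD). Ncoa4 feature 1 averaged 0.07 ± 0.18 (n = 3) and -0.23 ± 0.21 (n = 6), the widest gap of the 8 features. Klf9 gave -0.19 ± 0.14 and -0.13 ± 0.26, and Tsc22d3 -0.19 ± 0.05 and -0.11 ± 0.57. The dye term of the fit passed for 0 of 8 features and for 0% of all features, with 1 of 8 (Ncoa4 feature 1, -0.15, SE 0.06) at an unadjusted p under 0.05, against 6.56% of all features. Under the channel reading, where dye and castration change places, the dye term passed for 2.6% of all features and for 0 of 8; 1 of 8 (Esr1 feature 1, -0.18) had an unadjusted p under 0.05, against 13.7%.

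The receptor gene Nr3c1 and Tsc22d3, a known target of that receptor, were compared across arrays. Both were highest on young marrow replicate 3 and next on old marrow replicate 3, and both were low on old marrow replicate 1 and young marrow replicate 1. Their Pearson correlation over the 9 arrays was 0.83 (Spearman 0.83) under the castrated-over-sham reading, 0.83 under the channel reading and 0.83 on the 6 arrays with the castrated mouse in Cy5. Without the pair of arrays farthest from the median of Nr3c1 (young marrow replicate 3 and old marrow replicate 1) it was 0.77 over 7 arrays, and without young marrow replicate 3 alone it was 0.59 over 8. Esr1 feature 2 had higher correlations with both, 0.96 with Nr3c1 and 0.85 with Tsc22d3 over 8 arrays. Of 5568 other features with 9 values and a single gene, 2.77% had a correlation with Nr3c1 at least as high as the 0.83 of Tsc22d3. Klf9 had a correlation of 0.64 with Nr3c1, which 15.4% of these features matched or exceeded, and 0.38 without the same pair of arrays. With Tsc22d3 it had 0.54, and -0.07 without the pair farthest from the median of Tsc22d3 (young marrow replicate 3 and old marrow replicate 3). These are descriptions of 9 arrays that share array-wide spread, and which may share mice between young bone and young marrow.

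**Figure D3:**
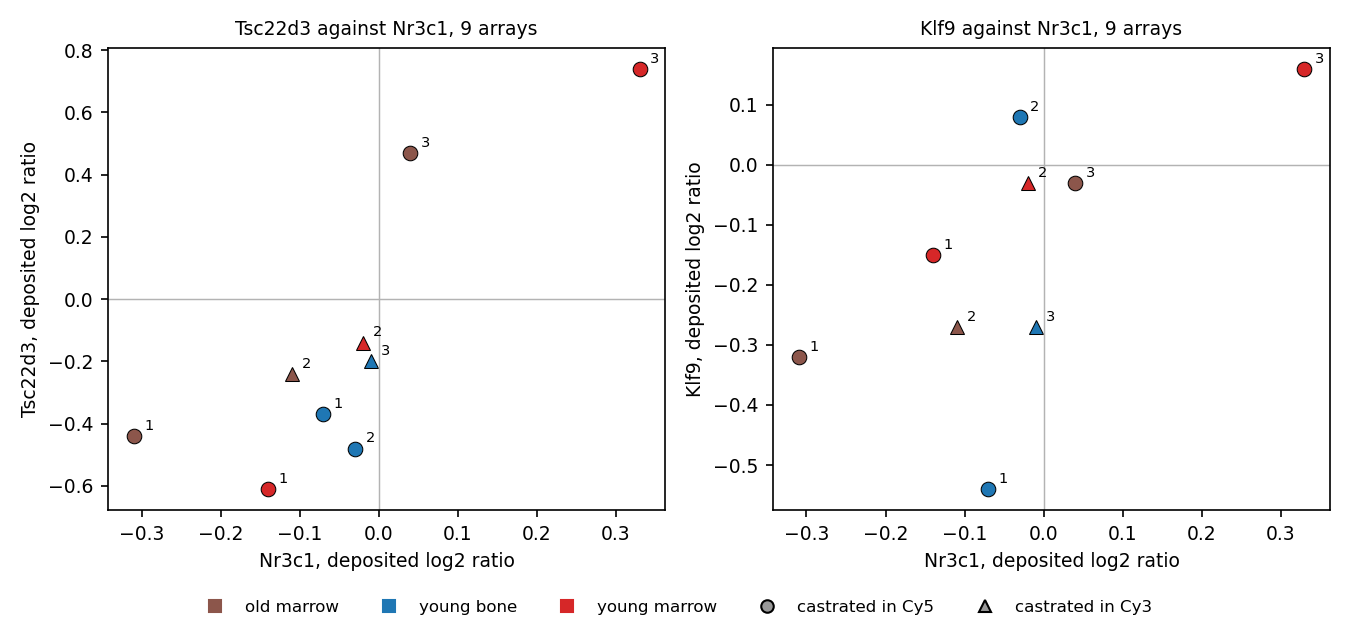
Deposited log2 ratio of Tsc22d3 (left) and Klf9 (right) on the vertical axes against Nr3c1 on the horizontal axis, 1 point per array, numbered by replicate, coloured by group and shaped by dye layout. Tsc22d3 was above 0 on the same 2 arrays as Nr3c1, young marrow replicate 3 and old marrow replicate 3.

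The features whose log2 ratios over the 9 arrays were most like each gene were listed by Pearson correlation, out of about 5568 single-gene features. For Nr3c1 these were Ednrb (0.97), Pin4 (0.97) and Pnkd (0.96), for Ncoa3 they were Tpm4 (0.95), Prag1 (0.92) and Ifi214 (0.90), and for Klf9 Cox6c (0.96), Fermt2 (0.94) and Zfp36l1 (0.93). For Tsc22d3 they were Stk17b (0.96), Senp7 (0.95) and Foxa2 (0.94). The features of Ncoa4 gave Pum2 (0.96), Trim33 (0.96) and Cstf2 (0.94), and Foxp2 (0.97), Chek1 (0.96) and Pcna (0.94), so no gene was shared between the lists of 2 features of 1 sequence. Under the channel reading the correlation of Foxp2 with Ncoa4 feature 2 was 0.12 and that of Zfp36l1 with Klf9 was -0.03, while Chek1 had 0.95 and Pcna 0.93 with Ncoa4 feature 2 and Stk17b 0.95 with Tsc22d3.

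Other genes of the pathway were taken from lists that were chosen with earlier results of these data known. Of 10 nuclear receptors tested, 0 passed by limma in the average and 2 had an unadjusted p under 0.05, near the 16.2% of all features: Esr1 and the orphan receptor Nr2f1 (-0.13, SE 0.05, below 0 on 8 of 8 arrays). The clock repressor Nr1d1 was next, at 0.10 (SE 0.08). Of 12 chaperones of steroid receptors 0 passed and 0 had an unadjusted p under 0.05, with Hsp90aa1, the inducible form of the chaperone that holds unliganded receptors, at 0.17 (SE 0.09) in the feature with the smallest p of its 9, and the cochaperones Bag1 at -0.11 and Stub1 at -0.09. With the channel reading 3 of 12 chaperone genes had an unadjusted p under 0.05 in at least 1 feature, next to 4.7% of all features, and 0 passed by limma. Of 2 genes of steroid synthesis and metabolism 0 passed and 0 had an unadjusted p under 0.05: Hsd17b10 stood at -0.08 and the cholesterol side chain cleavage enzyme Cyp11a1 at 0.02. The androgen receptor was not analysed here. The list medians were -0.03, -0.01 and -0.03, against 0.00 over all features.

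Among 25 coregulators tested by 33 features 1 passed in the average, a share near the 4.04% of all features. It was Smarca4, the ATPase of the BAF chromatin remodelling complex, at 0.52 (SE 0.06, limma adjusted p = 0.0007). It was above 0 on 9 of 9 arrays and also passed in young marrow at 0.60 (SE 0.10, limma adjusted p = 0.019). Its channel average was -0.09, so its direction for castrated mice rests on the likely reading. The list median was 0.01, next to 0.05 for Ncoa3 and -0.08 and -0.05 for the features of Ncoa4.

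Of 26 glucocorticoid-induced genes tested by 41 features, 2 passed above 0 and 4 below it in the average in at least 1 feature. Among all single features 4.04% passed. The list was chosen with earlier results of these data known, so its count beside that share is no test of the list. Klf9 and Tsc22d3, both on the list, did not pass. Above 0 were Il7r, the interleukin-7 receptor (0.91, SE 0.06, limma adjusted p = 1.9e-05), and the transcription factor Foxo1 (0.59, SE 0.05, in the feature with the smallest p, limma adjusted p = 0.00018), in which all 4 features passed. Below 0 were the decoy receptor Il1r2 (-0.62, SE 0.10), the annexin Anxa1 (-0.55, SE 0.06), the repressor Bcl6 (-0.31, SE 0.05) and the metallothionein Mt1 (-0.24, SE 0.06, in 1 of 2 features). The calls thus lay on both sides of 0, and the list median was -0.05. In single groups Bcl6 passed in young bone (-0.59), Anxa1 (-0.63) and the scavenger receptor Cd163 (0.50) in old marrow, and Il7r in all 3 groups (0.84 in old marrow, 1.02 in young bone, 0.89 in young marrow). Foxo1 passed in old marrow in 3 of 4 features (0.91 in the one with the smallest p, SE 0.12) and in young marrow in 4 of 4 (0.80, SE 0.09). The feature at 0.91 had values on 6 arrays, and the 4 features ran from 0.48 to 0.91 in old marrow. The feature named for the average, which gave the 0.80, stood at 0.48 there (limma adjusted p = 0.043). Il7r and the Foxo1 feature with the smallest p in the average stood above 0 on all 9 arrays. The features of Il1r2, Anxa1, Bcl6 and Mt1 that passed stood below 0 on all 9. By the channel reading these averages were 0.07, 0.00, 0.02, 0.00, -0.02 and 0.11, in the order named, and none passed by limma; 0 features of the array did.

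Markers of blood cells stood away from 0 on the same arrays. The median log2 ratio of 3 B lymphocyte genes (Blk, Cd79b and Vpreb3), a lineage in which Il7r and Foxo1 act, lay between 0.49 and 1.34 on the 9 arrays, and 3 of 3 passed above 0 in the average by limma. That of 3 granulocyte genes (Ctsg, Padi4 and Prtn3), a lineage that expresses Il1r2 and Anxa1, lay between -0.64 and -0.11, and 3 of 3 passed below 0. In the average 4.04% of all single features passed. The part of these lineages in the calls was not tested. The 2 macrophage genes measured, Adgre1 and Mpeg1, had medians between -0.49 and -0.12, and 3 adipocyte genes (Car3, Fabp4 and Lpl) between 0.21 and 1.20, of which 1 of 2 passed below 0 (Mpeg1) and 3 of 3 above it. Of the osteoclast list only Mmp9 was tested (-0.79 to 0.07 over the arrays), which passed below 0 in the average. Its fitted ratio was -0.44 in old marrow, -0.16 in young bone and -0.68 in young marrow, and of the groups only young marrow passed. Of the red cell list only Hbb-b1 was tested (-0.08 to 0.43), which did not pass. A single gene cannot stand for its cell type, so neither value is read as a change in osteoclasts or red cells.

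Of 18 sex steroid-responsive genes tested by 32 features, 1 passed above 0 and 3 below it in the average in at least 1 feature. Among all single features 4.04% passed. This list too was chosen with earlier results of these data known, so its count is no test of the list. Igfbp5, which binds insulin-like growth factors, stood at 1.03 (SE 0.06, limma adjusted p = 1.9e-05) and above 0 on 9 of 9 arrays. It also passed in each group, in 2 of 2 features in old marrow, in 1 of 2 in young bone (0.85) and in 2 of 2 in young marrow (1.24 in the one with the smallest p). Below 0 were the lysosomal protease Ctsd (-0.30), the acid phosphatase listed as Acpp (-0.31) and Sat1, which acetylates polyamines, in 2 of 3 features (-0.37 and -0.36). With the channel reading their averages were 0.05, 0.00, -0.03, -0.01 and -0.03, in the order named, and none passed. The list median was -0.01.

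**Figure D4:**
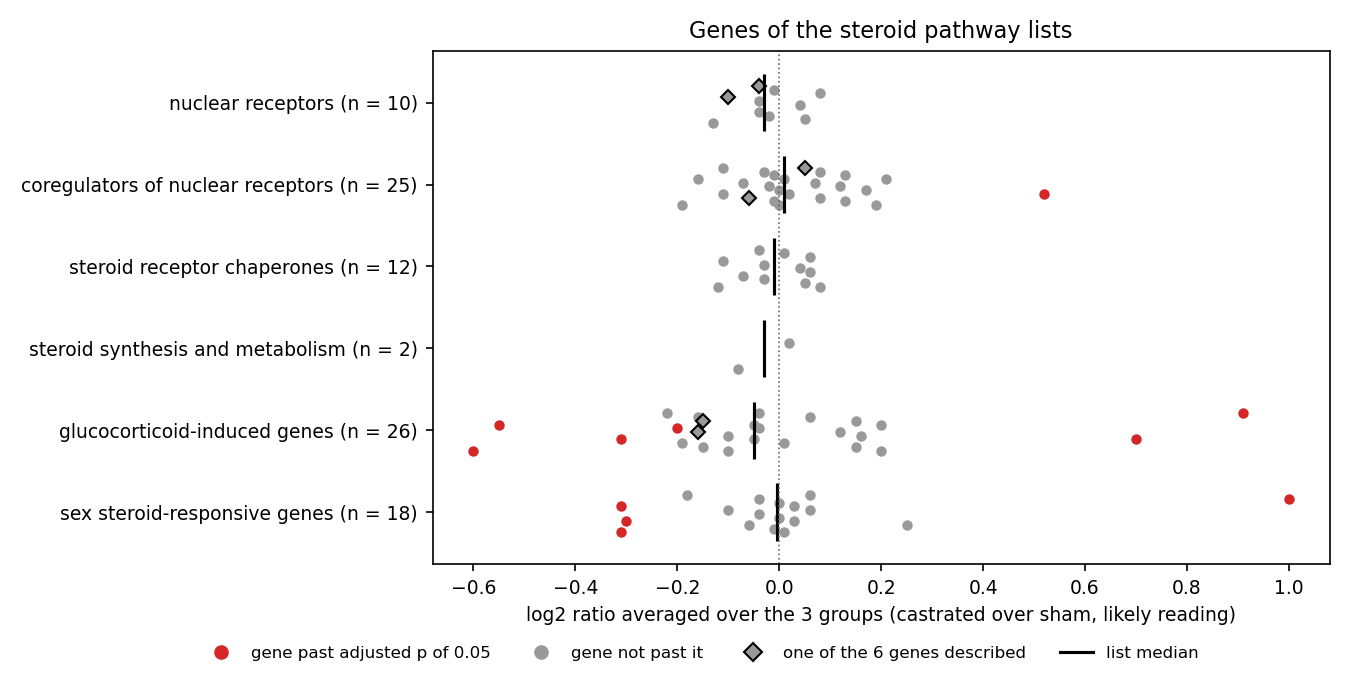
Log2 ratio averaged over the 3 groups by limma (horizontal axis, castrated-over-sham reading) of each tested gene of 6 lists, with features of a gene averaged; red marks genes with a feature past the adjusted p of 0.05, diamonds the 6 genes described, and bars the list medians. Ncoa3 (0.05) lies above its list median and the other diamonds below theirs, with Klf9 (-0.16), Tsc22d3 (-0.15) and Esr1 (-0.10) the lowest. The red points lie on both sides of 0.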

How the data were processed

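The deposited log ratios were computed by the authors from dual-channel arrays of Cy3- and Cy5-labelled cDNA; per the labels, aminoallyl cDNA made from total RNA of pulverised bone was coupled to the dyes. The deposited values were read as log2 from their range. Their log base, direction, background correction and normalization are not given in the sources used here. No counts or intensities were used, so depth is unknown; precision is limited by how many arrays there are. Of the 11552 features, 8050 had 1 gene, 672 several and 2830 none in the platform annotation, and 7880 gene IDs matched the RefSeq table of GRCm38.p6.

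Tests used limma 3.58.1 in R 4.3.3, on the 8885 features with at least 2 values in each group and at least 1 on a dye-swapped array. All 9 arrays entered 1 fit, with each group as a coefficient and dye as a shared term (5 residual degrees of freedom), and Benjamini-Hochberg adjustment covered all tested features, with a threshold of 0.05. All p-values are two-sided. The fit was tested on simulated data first. Missing values were left missing. Alternatives were the channel reading, arrays with the castrated mouse in Cy5 alone, no dye term, median centring, equal array scale, array weights, features on all 9 arrays, a replicate block, and leaving out each array.

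The 6 genes and the pathway and marker lists were chosen with earlier results of these data known. Named from the lists were all genes past the threshold in any comparison, otherwise the 3 with the smallest p in the average (from marker lists, the genes that make up each median). For each of the 6 genes, the 3 features most correlated over all 9 arrays were named.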

Additional observations from a re-analysis of the deposited data

Results flagged for a closer look

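Esr1 feature 2 lay on opposite sides of 0 in the young tissues: all 3 young bone values were below 0 and both young marrow values above it, and the mean in young bone minus that in young marrow was -0.26. Young marrow replicate 1 had no value. The limma test of the difference gave -0.28 (SE 0.18, 95% interval -0.68 to 0.12, adjusted p = 0.96), and -0.15 (SE 0.22) under the channel reading. Esr1 feature 1 gave 0.03 (SE 0.18) for the same difference.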

How the results depend on the processing

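Of the 8 features, 0 passed in any of the 7 comparisons under any alternative, left-out arrays included, with 1 exception: Klf9 in the average with array weights (-0.21, count 1). Esr1 features 1 and 2, with 8 values each, were not tested in the alternative limited to features on all 9 arrays. The count over all features moved more. In the order old marrow, young bone, young marrow and average, limma called 65, 23, 75 and 359 features, against 0, 0, 0 and 0 under the channel reading, 13, 1, 3 and 86 on arrays with the castrated mouse in Cy5, 90, 50, 101 and 497 without the dye term, 13, 1, 174 and 405 with equal array scale, and 328, 76, 1551 and 1056 with array weights. Leaving out 1 array gave 10 to 1332, 1 to 80, 0 to 138 and 96 to 574. For old minus young marrow the count of 0 became 2 with equal scale, 481 with weights, 2 on features with 9 values, and 0 to 885 with 1 array left out. For old marrow minus young bone the count of 1 became 0 under the channel reading, on Cy5 arrays, without the dye term and with the replicate block, 2 with weights, and 0 to 31 with 1 array left out. For young bone minus young marrow it was 0, and 5 with weights. The highest counts with 1 array left out (1332, 80, 138, 574, 885 and 31) all came without old marrow replicate 3; the lowest came without a dye-swapped array of old marrow (10), young bone (1) or young marrow (0 and 96). The cause was not tested.

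Same-numbered young bone and young marrow arrays deviated from their group means with correlations of -0.09, -0.37 and -0.08. Under the channel reading these were 0.17, -0.14 and -0.22. These deviations were not compared between arrays of different numbers, and the dye layout differs within numbers 2 and 3. The values thus cannot tell whether mice were shared. The numbers were not taken as pairs in the main fit. With the replicate block the counts were 21, 19, 43 and 169, and 0 of 8 features passed.

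The sign changed in 20 of 248 values of single features. With the ratio read as Cy5 over Cy3 these were, in old marrow, Esr1 feature 1 (0.09), Ncoa3 (-0.05), Klf9 (0.03) and Tsc22d3 (0.14), in young bone Esr1 feature 1 (0.21), in young marrow Ncoa4 feature 1 (-0.09), Klf9 (0.07) and Tsc22d3 (0.14), and in the average Esr1 features 1 and 2 (0.06 and 0.05), Nr3c1 (0.01), Ncoa3 (-0.02), Klf9 (0.03) and Tsc22d3 (0.04). On Cy5 arrays they were Tsc22d3 in old marrow (0.01) and young marrow (0.06), Ncoa4 feature 1 in young marrow (-0.04) and Esr1 feature 2 in the average (0.04). Tsc22d3 in old marrow was 0.02 with equal scale, and Nr3c1 in young marrow -0.02 with weights. Leaving out 1 array changed the sign of Tsc22d3 in old marrow (-0.34 to 0.12) and young marrow (-0.38 to 0.30), Esr1 feature 1 in young bone (-0.26 to 0.01) and young marrow (-0.46 to 0.05), Ncoa3 in young bone (-0.16 to 0.04), Nr3c1 (-0.08 to 0.15) and Klf9 (-0.09 to 0.07) in young marrow, and Esr1 feature 2 in the average (-0.07 to 0.01).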

Other observations

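Esr1 feature 3, not tested, had log2 ratios of 0.23 on old marrow replicate 1, and -0.13 and 0.13 on young bone replicates 2 and 3. A feature annotated to both Syne1 and Esr1 lay between -0.51 and 0.08 and was below 0 on 7 of 9 arrays. A feature annotated to Timm23, Ncoa4, Parg and Msmb lay between -0.31 and 0.00 and was below 0 on 8 of 9 arrays.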
